A study of Mus musculus with 14 samples.

Results

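The secreted neurotrophic factors Bdnf, Ntf3, Gdnf and Cntf and the neurotrophin receptors Ntrk2 and Ntrk3 were followed in cochlear supporting cells (SCs) after Notch inhibition. The members were the rows carrying these symbols in the deposited count tables, 6 of 35976 genes, and both tables held all 6. RNA was sequenced from EGFP+ SCs sorted from cochlear explants of B6;FVB-Tg(Lfng-EGFP)HM340Gsat/Mmucd, a transgenic mouse line, kept on a C57BL/6 background, in which Lfng regulatory sequence drives the reporter. Explants were cultured for 24 hours with 2 μM compound E, a γ-secretase inhibitor that keeps Notch receptors from being cleaved and signalling, or with the same volume of its solvent DMSO. All groups carried the same reporter and no other allele is named. Each treatment had 4 libraries at P0, for which the culture protocol gives P0-P1, and 3 libraries at P6. The methods describe pooling of several cochleae in one tube before the sort. Lfng is itself a Notch target gene, so the reporter that defines the sort can respond to the treatment.

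Neurotrophins are dimeric secreted proteins that keep sensory neurons alive and shape their projections. Neurotrophin-3, the product of Ntf3, signals mainly through TrkC (Ntrk3), and brain-derived neurotrophic factor, the product of Bdnf, signals through TrkB (Ntrk2). In the inner ear, hair cells and SCs are known sources of both factors, and the spiral ganglion neurons that innervate the cochlea carry both receptors. Gdnf and Cntf belong to other families of neurotrophic factors. Gdnf acts through Ret with a GFRα co-receptor, and Cntf through Cntfr with Lifr and Il6st.

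Totals were 19415066 to 44430063 counts per library. The labelled cell type was checked against 8 SC markers, all of which were counted and which summed to 3733 to 6684 RPM (reads scaled to a library total of 1000000) at P0 and 1193 to 3310 RPM at P6. By treatment the sum was 3811 to 6684 RPM with DMSO and 3733 to 3959 RPM with compound E at P0. At P6 it was 1429 to 3310 and 1193 to 2109 RPM. The sum was lower with compound E in every same-numbered pair, although the mean of Rorb was higher with compound E at both ages. Compound E lowered Notch targets as a group at P0, where 5 of 7 passed the thresholds, and all 7 had lower means at both ages. One batch stood apart. The labels place both P6 libraries of replicate 3 in batch 6, and these held the least SC marker RNA (1193 and 1429 RPM with compound E and DMSO, against 1815 to 3310 RPM in the other P6 libraries) and the most RNA of the mesenchyme list (3256 and 3976 RPM, against 884 to 2459 RPM). Most of the mesenchyme sum was Lum, at a P6 DMSO mean of 2021 RPM, against 349 RPM for Dcn and at most 51.6 RPM for any other gene of that list. The 8 neuronal markers summed to 116 and 138 RPM in batch 6, against 36.2 to 57.1 RPM in the other P6 libraries, and the 5 macrophage markers to 57.3 and 20.5 RPM, against 0.468 to 4.22 RPM. Markers of hair cells and endothelium were also at their P6 maxima there. Ages and batches coincide, since no batch held both ages, so the difference of P6 from P0 cannot be told apart from a difference between batches.

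**Figure D1:**
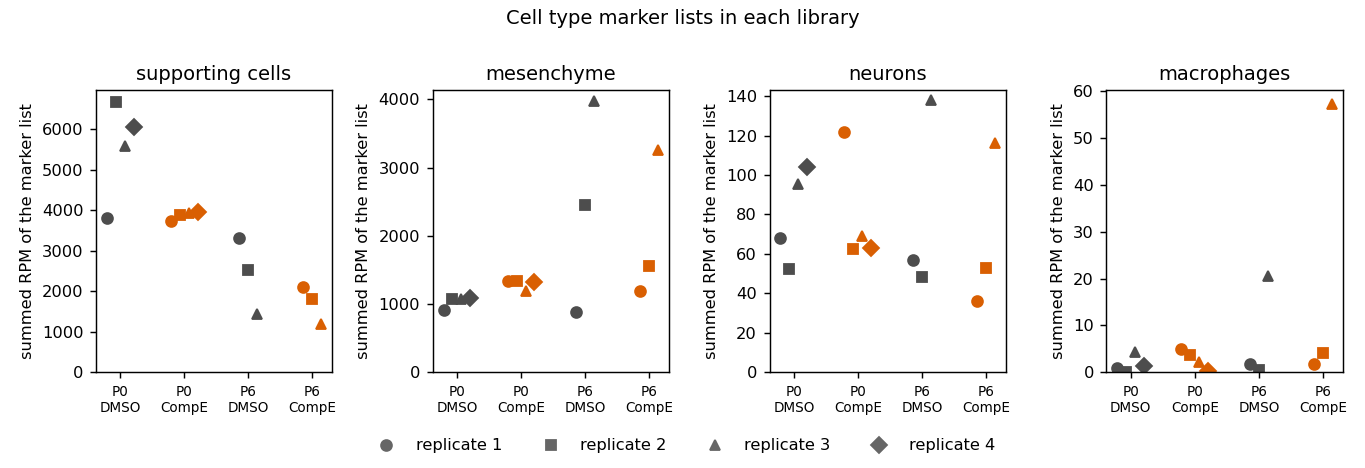
Summed RPM (vertical axis) of 4 cell type marker lists in each of the 14 libraries, by age and treatment. Grey points are DMSO, orange points compound E, and the symbol gives the replicate number. The triangles at P6 are batch 6, lowest for SC markers at 1193 and 1429 RPM and highest for mesenchyme at 3256 and 3976 RPM.

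The promoters of the members bear on the treatment because the Notch complex binds DNA through RBPJ, and the HES and HEY proteins that Notch induces bind DNA as repressors. RefSeq sequence of GRCm38.p6, 250 bases before each annotated start, was given for 5 members in 13 windows, and Ntrk3 had none. The RBPJ motif GTGGGAA, searched on both strands, was in 0 of the 13 windows and in 5.42% of all 32851 windows. The HES/HEY class C motif CACGNG, also searched on both strands and overlapping the E-box CACGTG, was in 23.5% of all windows. It lay in both Ntf3 windows, the Ntrk2 window and 1 of 7 Bdnf windows, and in none of Gdnf or Cntf. One window each of Ntf3, Ntrk2 and Bdnf is shown with the motif in capitals, since these were the 3 most abundant members. The Ntf3 window not shown held the E-box CACGTG, 231 bases before its start, and 166 of its bases were annotated as untranslated region.
Ntf3, chr6:126164961-126165210, minus strand: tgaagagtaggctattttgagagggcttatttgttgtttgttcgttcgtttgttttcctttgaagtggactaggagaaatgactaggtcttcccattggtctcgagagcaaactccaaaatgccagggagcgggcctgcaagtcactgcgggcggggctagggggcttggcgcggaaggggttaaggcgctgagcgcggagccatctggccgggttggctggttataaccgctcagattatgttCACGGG
Ntrk2, chr13:58806319-58806568, plus strand: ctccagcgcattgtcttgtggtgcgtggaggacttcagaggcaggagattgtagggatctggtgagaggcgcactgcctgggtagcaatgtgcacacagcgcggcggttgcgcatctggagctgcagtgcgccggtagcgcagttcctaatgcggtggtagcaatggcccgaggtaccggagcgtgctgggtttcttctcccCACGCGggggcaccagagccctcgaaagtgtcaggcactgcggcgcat
Bdnf, chr2:109692186-109692435, plus strand: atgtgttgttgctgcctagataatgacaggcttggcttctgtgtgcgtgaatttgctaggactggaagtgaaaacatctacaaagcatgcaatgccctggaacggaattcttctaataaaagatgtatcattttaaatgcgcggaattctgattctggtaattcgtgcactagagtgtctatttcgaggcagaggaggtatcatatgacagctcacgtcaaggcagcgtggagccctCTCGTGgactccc
In the windows shown, the motif began 6 bases before the start in Ntf3, 48 in Ntrk2 and 13 in Bdnf. A match describes the letters only. Counts per gene do not show which start was used.

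Ntf3 was by far the most abundant member per length of exon. In P0 DMSO libraries its level was 175 ± 16.7 RPKM (RPM divided by the kilobases of exons, SD, n = 4), followed by Bdnf at 4.83 ± 1.14, Ntrk2 at 0.387 ± 0.227 and Gdnf at 0.258 ± 0.112 on the same scale. Cntf and Ntrk3 stood at 0.0148 and 0.0109. In this group Ntf3 and Bdnf were each separate from the next gene in every library, by 36.2 and 12.5 times on the means. Ntrk2 and Gdnf overlapped, and so did Cntf and Ntrk3. In P6 DMSO libraries Ntf3 stood at 51.1 ± 35.2 (SD, n = 3), still separate from Bdnf at 3.42 ± 1.11, while Bdnf and Ntrk2, now at 2.42 ± 1.80, overlapped. In P6 compound E libraries the ranges of Ntf3 (21.7 ± 20.2, SD, n = 3) and Bdnf (2.93 ± 1.54) overlapped as well, through batch 6. The order of Bdnf above Ntrk2 in P6 DMSO libraries turned when the longest transcript replaced all exons as the length (4.98 and 5.34). Among 26890 genes with any count, the mean RPM of Ntf3 over the 14 libraries lay at the 96.1 percentile, that of Bdnf at 74.4 and that of Ntrk2 at 72.0.

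**Figure D2:**
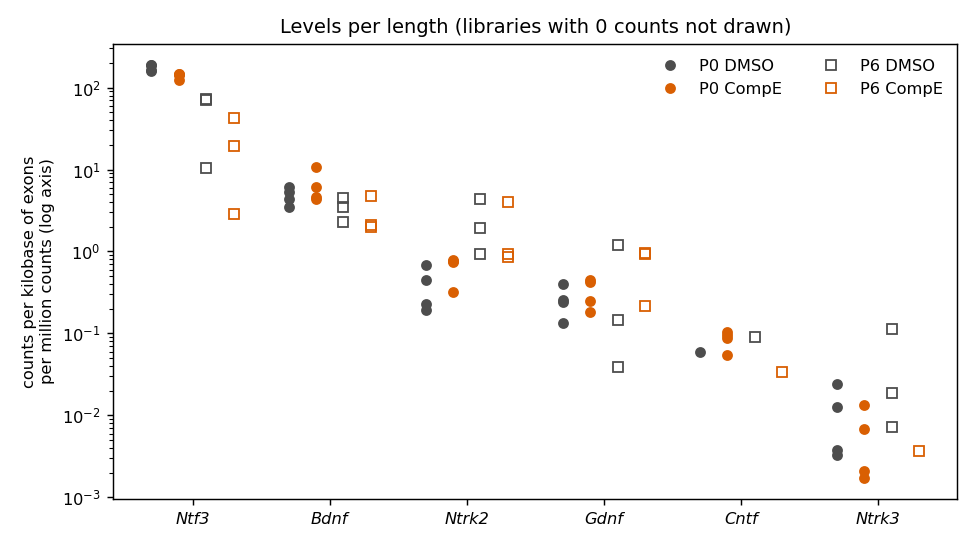
Levels per length of the 6 members (vertical log axis, RPKM, which is RPM per kilobase of exons), 1 point per library with at least 1 count. Filled circles are P0, open squares P6, grey DMSO and orange compound E, and Ntf3 lies above every other member at P0 at a DMSO mean of 175.

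Ntf3, on chromosome 6 of GRCm38 from 126101412 to 126166910 on the minus strand, was lower with compound E than with DMSO in all 7 same-numbered pairs of libraries, and lower at P6 than at P0. Neither treatment difference passed the thresholds. At P0, DMSO replicates 1 to 4 had 326, 322, 269.6 and 282 RPM, and compound E replicates 1 to 4 had 252, 246, 213 and 249 RPM. Every compound E library lay below every DMSO library. In P6 DMSO replicates 1 to 3 the values were 125, 119.6 and 18.1 RPM, and in compound E replicates 1 to 3 they were 73.7, 33.2 and 4.92 RPM. Here the treatments overlapped, because both libraries of batch 6 lay far under the others. The SC marker sum was also lower with compound E in every same-numbered pair, and its part in the Ntf3 values was not tested. In sorted bulk RNA, fewer cells of a type and less RNA per cell cannot be told apart.

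A gene counted as called when edgeR's quasi-likelihood test gave a 2-fold or larger change with a Benjamini-Hochberg adjusted p no higher than 0.01. At P0 the log2 fold change of Ntf3 was -0.36 (standard error 0.106, edgeR unadjusted p = 0.00716, adjusted p = 0.121 over 15937 genes). With the replicate number as a block it was again -0.36 (standard error 0.0871, edgeR adjusted p = 0.0468), under the 2-fold limit. The non-overlap gave the smallest two-sided exact permutation p that 4 against 4 libraries allow, 0.0286, and 9.88% of the genes tested at P0 had groups that did not overlap. Within the 4 pairs at P0 the log2 ratio of compound E to DMSO ran from -0.39 to -0.18, and 11.7% of genes were lower in every pair. At P6 the log2 ratios within pairs were -0.76, -1.85 and -1.88, and 17.1% of genes were lower in every pair. The fit at P6 gave -1.23 (standard error 0.982, edgeR adjusted p = 1.00), which became -2.15 without compound E replicate 1 and -0.71 without compound E replicate 3. The replicate block gave -1.46 (standard error 0.245, edgeR unadjusted p = 0.00121, adjusted p = 0.365), and without batch 6 the blocked value was -1.29 (edgeR adjusted p = 0.329). Of the 14755 genes tested at both ages, 3.83% were lower in all 7 pairs. The difference of the P6 response from the P0 response was -0.86 on the log2 scale (standard error 0.925, edgeR adjusted p = 1.00), and -1.09 with the replicate block (standard error 0.252, edgeR unadjusted p = 0.00168, adjusted p = 0.124). Without a block, leaving out a single library moved this difference between -1.78 (P6 compound E replicate 1) and -0.34 (P6 compound E replicate 3).

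Between ages, Ntf3 had 87.6 ± 60.3 RPM (SD, n = 3) at P6 and 300.0 ± 28.6 RPM (SD, n = 4) at P0 with DMSO, and 37.3 ± 34.6 and 240.1 ± 18.0 RPM with compound E. No P6 library reached any P0 library of the same treatment, and the exact two-sided permutation p was 0.0571 for each, the smallest that 4 against 3 allow. Groups that did not overlap between ages were seen in 31.1% of genes with DMSO and 38.2% with compound E. The log2 differences of P6 from P0 were -1.68 with DMSO (standard error 0.686, edgeR adjusted p = 0.0939) and -2.54 with compound E (standard error 0.715, edgeR adjusted p = 0.0215), neither of which passed the threshold. Batch 6 held the lowest Ntf3 values and the lowest SC marker sums at once, and the part of one in the other was not tested. Without batch 6, an alternative chosen after seeing the values, both age differences passed, at -1.17 with DMSO (standard error 0.233, edgeR adjusted p = 0.00426) and -2.01 with compound E (standard error 0.244, edgeR adjusted p = 0.00025). In these fits 7.36% and 5.87% of all genes passed.

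Bdnf, on chromosome 2 from 109674700 to 109727007 on the plus strand, showed no treatment difference beyond the spread between libraries. At P0 it had 32.8, 21.9, 27.1 and 38.3 RPM in DMSO replicates 1 to 4, and 66.1, 26.8, 29.1 and 38.0 RPM in compound E replicates 1 to 4. Compound E replicate 1 lay above all other libraries, and the remaining 3 lay within the DMSO range. Within its group that library also held the highest sum of the hair cell list (2138 RPM, against 1139 to 1634 RPM in the other 3). Its neuronal list sum was highest there too (122 RPM, against 62.7 to 68.8 RPM). In P0 DMSO replicates 1 to 4 the neuronal sums were 68.3, 52.4, 95.5 and 104 RPM. The part of either list in the Bdnf value was not tested. At P6 Bdnf had 21.5, 14.2 and 28.0 RPM in DMSO replicates 1 to 3 and 12.3, 13.1 and 29.3 RPM in compound E replicates 1 to 3. Batch 6 was highest with either treatment. The log2 fold change was 0.36 at P0 (standard error 0.261, edgeR adjusted p = 0.654) and fell to 0.05 without compound E replicate 1. It was -0.21 at P6 (standard error 0.383, edgeR adjusted p = 1.00). Without compound E replicate 1 or DMSO replicate 3 at P6 it lay at 0.0006 and 0.0062. The age difference of Bdnf was -0.43 with DMSO (standard error 0.340, edgeR adjusted p = 0.391) and -0.998 with compound E (standard error 0.346, edgeR adjusted p = 0.0534). Without batch 6 the latter was -1.46 and still did not pass.

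The proportion of both ligands within a library was also followed. Per length of exon, Ntf3 exceeded Bdnf by 26.7 to 53.4 times in P0 DMSO libraries (median 36.1, n = 4) and by 13.8 to 33.2 times in P0 compound E libraries (median 25.2, n = 4). In P6 DMSO replicates 1 and 2 the ratio was 21.1 and 30.5, and in compound E replicates 1 and 2 it was 21.7 and 9.18. In batch 6 it was 2.34 with DMSO and 0.609 with compound E, so this was the sole P6 pair in which Ntf3 came near or below Bdnf.

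**Figure D3:**
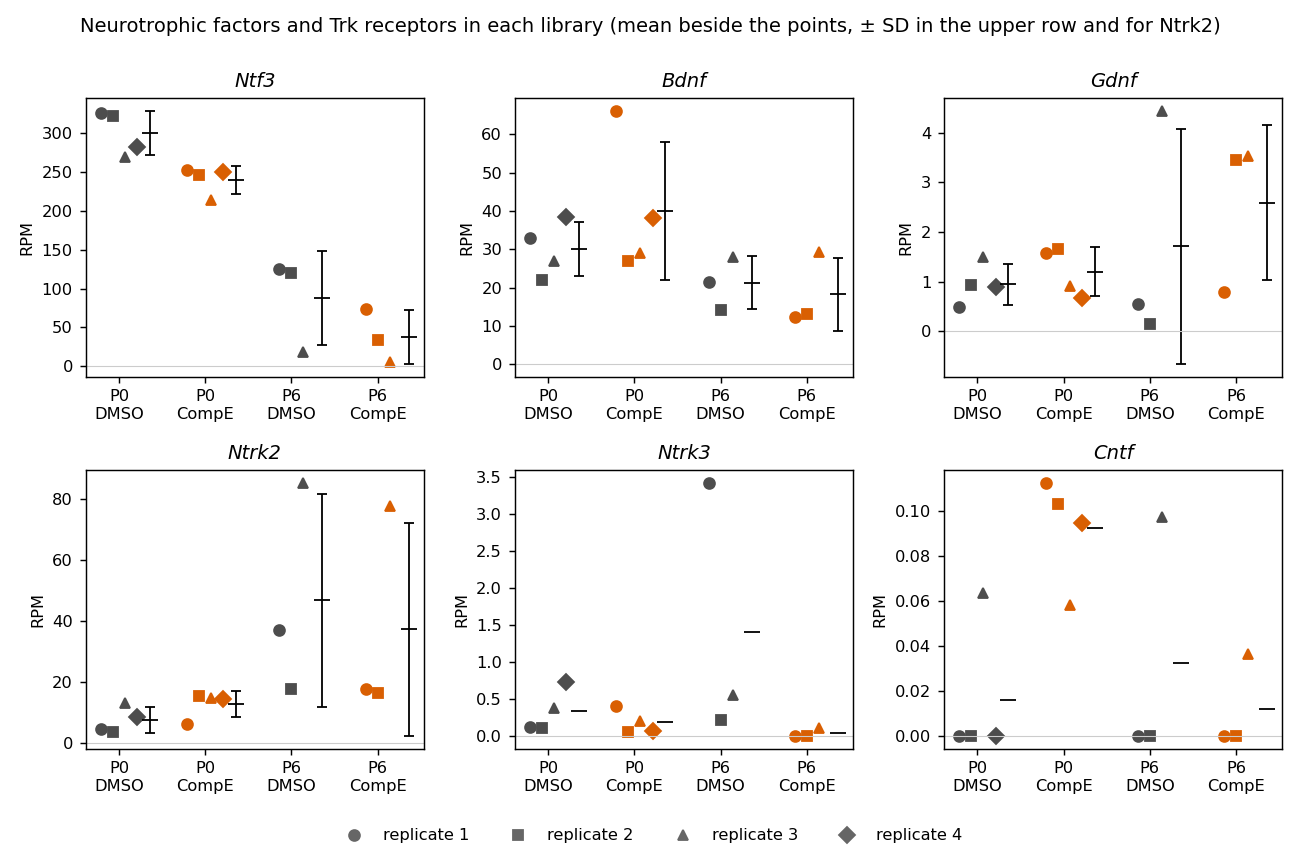
RPM (vertical axes, a scale for each gene) of the 6 members in each library. Grey points are DMSO and orange points compound E, the symbol gives the replicate number, and the black bar is the group mean, with SD whiskers for Ntf3, Bdnf, Gdnf and Ntrk2. Ntf3 is separate between treatments at P0, and the P6 triangles (batch 6) are lowest for Ntf3, at 18.1 and 4.92 RPM, and highest for Ntrk2, at 85.3 and 77.5 RPM.

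Ntrk2, on chromosome 13 from 58806569 to 59133970 on the plus strand, encodes TrkB, including forms without the kinase domain that gene counts do not separate. It was higher at P6 than at P0 with DMSO and its values with compound E lay above those of the paired DMSO libraries at P0 and below them at P6. At P0 it had 4.39, 3.68, 13.1 and 8.64 RPM in DMSO replicates 1 to 4, and 6.19, 15.3, 14.8 and 14.5 RPM in compound E replicates 1 to 4. At P6 it had 37.0, 17.8 and 85.3 RPM in DMSO replicates 1 to 3, and 17.8, 16.3 and 77.5 RPM in compound E replicates 1 to 3. The treatments overlapped at each age, and every P6 library lay above every P0 library of the same treatment. Such a separation between ages was seen in 31.1% of genes with DMSO and 38.2% with compound E.

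With DMSO the log2 difference of P6 from P0 was 2.68 (standard error 0.636, edgeR adjusted p = 0.00866), from 46.7 ± 34.8 RPM (SD, n = 3) against 7.46 ± 4.38 RPM (SD, n = 4), and Ntrk2 was the only member called in any comparison of the reported fits. Among all 17090 genes tested 7.13% were called. The exact permutation p on RPM was 0.0571, the smallest that 4 against 3 allow. The call was lost without DMSO replicate 1, 2 or 4 at P0 (2.48, 2.46 and 2.76) and without DMSO replicate 1 or 3 at P6 (2.82 and 1.96), with edgeR adjusted p from 0.0144 to 0.0398. It was also lost with the libraries of these groups alone (2.68, edgeR adjusted p = 0.0172) and without batch 6 (1.96, edgeR adjusted p = 0.0147). Batch 6 held both the highest Ntrk2 values and the highest mesenchymal, neuronal and macrophage marker sums, and their part was not tested. With compound E the age difference was 1.64 (standard error 0.621, edgeR adjusted p = 0.0734) and 0.58 without batch 6. Of the 5 members tested in this comparison 0 were called, against 6.43% of all genes. By edgeR 3 of the 5 (Ntf3, Bdnf and Ntrk2) had an unadjusted p under 0.05, as had 35.7% of all genes. DESeq2 called Ntf3 alone of the members, and 10.4% of all genes.

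The response of Ntrk2 to compound E was positive in 4 of 4 pairs at P0, with log2 ratios of 0.50, 2.06, 0.17 and 0.75 for replicates 1 to 4. At P6 it was negative in 3 of 3 pairs, with -1.06, -0.12 and -0.14 for replicates 1 to 3. Of the genes tested at P0, 17.4% were higher in every pair, and of those tested at both ages, 1.95% were higher in every P0 pair and lower in every P6 pair. The log2 fold change was 0.73 at P0 (standard error 0.445, edgeR adjusted p = 0.571) and 0.81 with the replicate block (standard error 0.294, edgeR unadjusted p = 0.0250, adjusted p = 0.175). Without a block it was 1.18 when DMSO replicate 3 was left out and 0.39 when replicate 2 of both treatments was. At P6 it was -0.32 (standard error 0.721, edgeR adjusted p = 1.00). Its sign at P6 was not stable, at 0.41 without DMSO replicate 3 at 0.01 and 0.02 without compound E replicate 1 or 2, and at -1.39 without compound E replicate 3. With the replicate block it was -0.42 (standard error 0.218, edgeR adjusted p = 0.718). The difference between ages in the response was -1.04 (standard error 0.883, edgeR adjusted p = 1.00), or -1.22 with the block (standard error 0.428, edgeR unadjusted p = 0.0181, adjusted p = 0.367), and neither passed the threshold. Without a block it was -2.10 when P6 compound E replicate 3 was left out and -0.32 when P6 DMSO replicate 3 was. At P0 the hair cell list was higher with compound E in 4 of 4 pairs, its sum reaching 1139 to 2138 RPM against 581 to 1293 RPM, and its part in the Ntrk2 values was not tested.

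**Figure D4:**
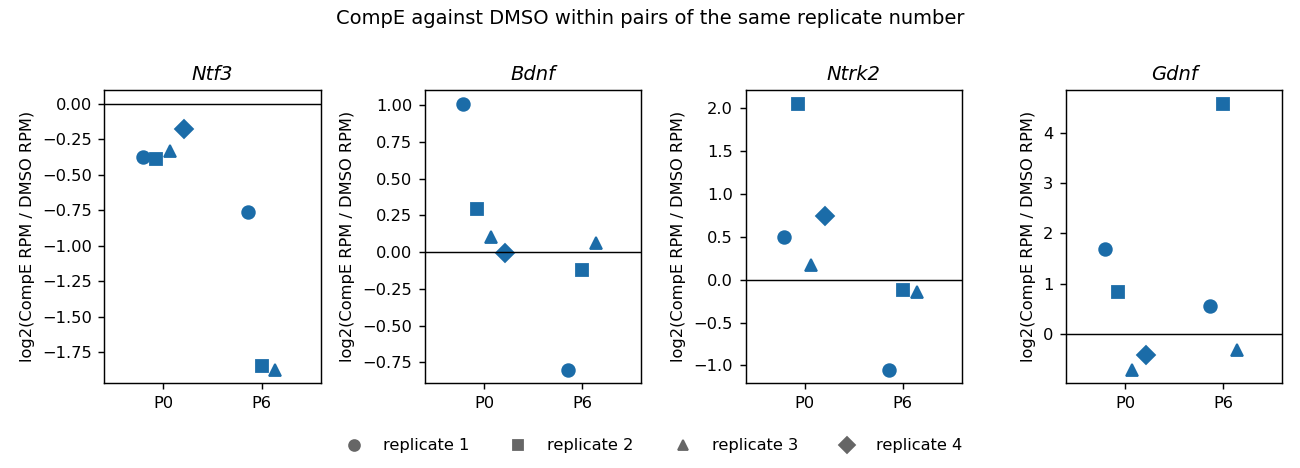
Log2 ratio of compound E to DMSO RPM (vertical axes, a scale for each gene) within pairs of the same replicate number, at P0 (4 pairs) and P6 (3 pairs), with a line at 0. All 7 Ntf3 points lie below 0, while the Ntrk2 points lie above 0 at P0 (0.17 to 2.06) and below 0 at P6 (-1.06 to -0.12).

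Ntrk3, on chromosome 7 from 78175959 to 78738012 on the minus strand, encodes TrkC, the main receptor of neurotrophin-3. Its counts were low, at 0 to 82 per library. At P0 it had 3, 4, 12 and 22 counts in DMSO replicates 1 to 4 and 18, 1, 7 and 2 counts in compound E replicates 1 to 4, with the treatments overlapping. At P6 it had 82, 6 and 23 counts in DMSO replicates 1 to 3 and 0, 0 and 3 counts in compound E replicates 1 to 3. The P6 treatments did not overlap, and the exact two-sided permutation p was 0.1, the smallest that 3 against 3 allow. Of the genes that passed the filter on low counts at P6, 7.19% did not overlap, but Ntrk3 was not among the genes that passed. A library with 0 counts allows up to 3. Pooled over the P6 libraries, the rate with DMSO was 32.4 times that with compound E (exact 95% interval 10.8 to 159, counting error only), and 11.4 times (3.53 to 58.4) without DMSO replicate 1, which held 82 of the 111 counts. Ntrk3 did not pass the filter on low counts in the fit of either age. In the fit of all 14 libraries, the difference of the P6 response from the P0 response was -4.22 (standard error 1.77, edgeR unadjusted p = 0.0319, adjusted p = 0.953), and its age differences were 2.12 with DMSO and -2.10 with compound E (edgeR adjusted p = 0.187 and 0.291). The difference of responses was -2.40 without P6 DMSO replicate 1 and -7.61 without P6 compound E replicate 3. The age difference with DMSO was 0.29 without P6 DMSO replicate 1, and that with compound E was -1.40 without P0 compound E replicate 1 and -5.49 without P6 compound E replicate 3. Without that last library its group held only counts of 0, so the sizes of -7.61 and -5.49 are not measured by counts. The neuronal marker sum was 57.1 RPM in P6 DMSO replicate 1, the library with 82 counts, and 138 RPM in DMSO replicate 3, and its part in the Ntrk3 counts was not tested.

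Gdnf, on chromosome 15 from 7810846 to 7837575 on the plus strand, was detected in all 14 libraries at 4 to 183 counts and showed no treatment or age difference beyond its spread. At P0 it had 0.492, 0.926, 1.49 and 0.887 RPM in DMSO replicates 1 to 4 and 1.58, 1.65, 0.904 and 0.663 RPM in compound E replicates 1 to 4. At P6 it had 0.542, 0.144 and 4.44 RPM with DMSO and 0.796, 3.45 and 3.53 RPM with compound E. Batch 6 was again highest with DMSO. The log2 fold changes were 0.26 at P0 (standard error 0.452, edgeR adjusted p = 0.894) and 0.65 at P6 (standard error 1.18, edgeR adjusted p = 1.00), and the sign turned to -0.09 at P0 without replicate 1 of both treatments and to -0.20 at P6 without replicate 2 of both. At P6 it was 2.91 without DMSO replicate 3 and 0.12 without DMSO replicate 2. The age differences were 0.87 with DMSO, turning to -1.40 without DMSO replicate 3, and 1.26 with compound E.

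Cntf, on chromosome 19 from 12763660 to 12765632 on the minus strand, had more than 3 counts in 2 of 14 libraries. At P0 there were 0, 0, 2 and 0 counts in DMSO replicates 1 to 4 and 5, 2, 2 and 3 counts in compound E replicates 1 to 4. At P6 DMSO replicate 3 had 4 counts, compound E replicate 3 had 1, and the other 4 libraries had 0. The gene was at or near the floor in every group, and no fold is given. Of its 1073 exon bases, 847 are shared on the same strand with exons of Zfp91, so how reads there were assigned is uncertain. Bdnf shares 896 exon bases with the antisense gene Gm45346, and whether counting used the strand is not given in the sources used here.

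The counts of members were read against those of all genes. At P0, 4 of the 6 members were tested and 0 were called, against 1.22% of all genes, of which 195 passed, or 350 with the replicate block and 425 with DESeq2. At P6, 0 of the same 4 were called against 0% of all genes. There edgeR called 0 of 15322 genes, 289 had an unadjusted p under 0.05, and DESeq2 called 11. For the difference of the responses, 0 of 5 members tested were called against 0% of all genes, with 811 genes at an unadjusted p under 0.05, 16 called with the replicate block and 34 with DESeq2. DESeq2 called 0 members in each of these comparisons.

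The other genes of the pathway were taken from lists of 43 genes. Of all genes tested, 1.22% were called with treatment at P0 and 0% at P6. For P6 against P0 the share was 7.13% with DMSO and 6.43% with compound E. Among 8 neurotrophins and receptors beyond the members, 0 of 7 tested were called with treatment at P0, with a median log2 fold change of -0.40 against 0.01 over all genes. Ngfr, the receptor shared by all neurotrophins, had 14.7 ± 3.42 RPM (SD, n = 4) in DMSO and 8.91 ± 1.52 RPM in compound E libraries at P0, and differed by -0.76 on the log2 scale (standard error 0.196, edgeR adjusted p = 0.0711). It fell from P0 to P6, with log2 differences of -1.50 with DMSO (edgeR adjusted p = 0.00672) and -1.87 with compound E (edgeR adjusted p = 0.00215). The DMSO call of Ngfr was lost without batch 6 (-1.15, edgeR adjusted p = 0.0126) and without DMSO replicate 1, 3 or 4 at P0 or 2 or 3 at P6 (edgeR adjusted p from 0.0137 to 0.0249) and with the libraries of the DMSO groups alone (0.0344), and the compound E call without compound E replicate 2 or 3 at P6 (edgeR adjusted p = 0.0113 and 0.0112). Sorcs1, a sortilin-related receptor, had 56.2 ± 22.1 RPM in DMSO and 19.5 ± 3.38 RPM in compound E libraries at P0 (-1.59 on the log2 scale, standard error 0.274, edgeR adjusted p = 0.0109) and missed the threshold. It was named after its values were seen.

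In the GDNF family, 0 of 8 genes tested were called with treatment at either age, and 1 was called between ages. Gfra1, the co-receptor that binds Gdnf, fell from 76.2 ± 21.7 RPM (SD, n = 4) at P0 to 5.69 ± 4.14 RPM (SD, n = 3) at P6 with DMSO, a log2 difference of -3.68 (standard error 0.523, edgeR adjusted p = 0.000313). With compound E it fell from 122 ± 37.8 to 7.17 ± 1.89 RPM, a log2 difference of -3.94 (standard error 0.529, edgeR adjusted p = 0.000222). Both calls held in all 13 alternatives, batch 6 left out included. In the CNTF family, 0 of 7 genes were called with treatment, and Lifr, the signalling receptor shared with leukemia inhibitory factor, rose with age in compound E libraries, from 27.4 ± 1.56 to 62.3 ± 8.79 RPM (log2 difference 1.32, standard error 0.176, edgeR adjusted p = 0.000215). With DMSO its difference was 0.35 (edgeR adjusted p = 0.166), and the difference between these was 0.96 (standard error 0.251, edgeR adjusted p = 0.484). The DMSO libraries held 40.2 ± 5.30 RPM of Lifr at P0 and 49.4 ± 14.4 RPM at P6. The rise with compound E thus began from a lower P0 level, -0.60 from DMSO on the log2 scale (standard error 0.134, edgeR adjusted p = 0.0373), which did not pass the thresholds.

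Among 11 adaptors of Trk signalling, 0 were called with treatment at either age and 2 fell between ages with either treatment. Of all genes, 7.13% were called between ages with DMSO and 6.43% with compound E. Shc3, a neuronal Shc adaptor, went from 27.5 ± 9.89 RPM (SD, n = 4) at P0 to 0.611 ± 0.193 RPM (SD, n = 3) at P6 with DMSO, a log2 difference of -5.43 (standard error 0.575, edgeR adjusted p = 2.81e-05), and differed by -3.75 (edgeR adjusted p = 0.0003) with compound E. Frs3, a docking protein for Trk and FGF receptors, fell with log2 differences of -1.13 with DMSO (edgeR adjusted p = 0.00715) and -1.30 with compound E (edgeR adjusted p = 0.00346). The DMSO call of Frs3 was lost without DMSO replicate 1, 2 or 4 at P0 or 2 or 3 at P6 (edgeR adjusted p from 0.0141 to 0.0334), with no filter on low counts (0.0107), with the libraries of the DMSO groups alone (0.0296) and without batch 6 (-0.97), and the compound E call without compound E replicate 1 at P0 or 2 at P6 (edgeR adjusted p = 0.0106 and 0.0198). The median log2 difference of the list from P0 to P6 was -0.32 with DMSO, against -0.05 over all genes.

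Of the 8 proteases that process proneurotrophins, 2 fell with compound E at P0, where 1.22% of all genes were called. These were the only pathway genes called for treatment. Pcsk6, a proprotein convertase, went from 136 ± 25.0 RPM with DMSO to 62.3 ± 6.90 RPM (SD, n = 4) with compound E, which is -1.17 on the log2 scale (standard error 0.174, edgeR adjusted p = 0.00526). Plat, the tissue plasminogen activator, which makes the plasmin that cleaves proneurotrophins, went from 213 ± 44.6 to 106 ± 16.5 RPM, which is -1.05 on the log2 scale (standard error 0.141, edgeR adjusted p = 0.00303). Both were also called with the replicate block, at -1.15 and -1.05. The Pcsk6 call held in 8 of 19 alternatives and the Plat call in 11 of 19. The Pcsk6 call was lost without any 1 of 7 of the 8 P0 libraries, DMSO replicate 1 excepted (edgeR adjusted p from 0.0161 to 0.0245), without replicate 2, 3 or 4 of both treatments (0.0468, 0.0589 and 0.0516) and with all 14 libraries in one fit (0.0842), and the Plat call without compound E replicate 2, 3 or 4 (edgeR adjusted p from 0.0106 to 0.0172) or DMSO replicate 1, where the change was -0.94, and without any 1 replicate number of both treatments (edgeR adjusted p from 0.00249 to 0.0433). Between ages, Pcsk2 rose from 3.56 ± 2.96 RPM at P0 to 72.0 ± 32.8 RPM at P6 with DMSO (log2 difference 4.38, standard error 0.642, edgeR adjusted p = 0.000382) and by 4.13 with compound E (edgeR adjusted p = 0.00068). Pcsk6 fell with age in DMSO libraries, with a log2 difference of -1.45 (edgeR adjusted p = 0.00891), a call lost without DMSO replicate 2, 3 or 4 at P0 or 2 or 3 at P6 (edgeR adjusted p from 0.0198 to 0.0435) with the libraries of these groups alone (0.0241) and without batch 6 (-1.27, edgeR adjusted p = 0.0281). Without batch 6, 4 of the 43 pathway genes were called between ages with DMSO (1 higher), where 7.36% of all genes were called, and 6 with compound E (2 higher), where 5.87% were.

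For each member averaging 1 RPM or more, the genes most like it across the 14 libraries were found from log2 values with the mean of each age removed. Pearson's r was taken over at least 9987 genes averaging 10 RPM or more. Bdnf went with Mbd4 (r = 0.93) and Srgap1 (r = 0.91), Ntf3 with Mycn (r = 0.92) and Pno1 (r = 0.92), Ntrk2 with Lgalsl (r = 0.92) and Paqr9 (r = 0.90), and Gdnf with Golga2 (r = 0.91) and Nfatc2 (r = 0.85). For Ntf3 the coefficients were 0.68 and 0.66 within the 8 P0 libraries and 0.94 and 0.99 within the 6 P6 libraries, where batch 6 spans most of the range. Among the members, Ntf3 ran against Gdnf (r = -0.79), Ntrk2 (r = -0.59) and Bdnf (r = -0.51). These are descriptions, since the points share libraries, batches and depth.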

How the data were processed

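The authors trimmed reads of full-length cDNA libraries (amplified, without molecular identifiers) with Trim Galore 0.6.0 and cutadapt 1.15, aligned them to GRCm38 (mm10) with STAR and deposited raw counts per gene for each age. The submitters' processing notes give STAR 2.7.0f, and the methods another version. Which annotation release was used, and whether counting was stranded, is not given in the sources used here. In the deposited counts, 10113 genes had no read at P0 and 12139 none at P6.

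RPM values are counts scaled to a total of 1000000 over genes. Levels per length divide by the exon union of GENCODE M21. Fits used edgeR 4.0.16 in R 4.3.3 (TMM, filterByExpr at a minimum count of 10, glmQLFit, glmQLFTest). Each age was fitted alone for treatment, and all 14 libraries together for the ages and the difference of responses. The alternative tool was DESeq2 1.42.0. Scripts were tested on simulated data. All 18 replicate pairs differed by more than sampling noise (lowest chi-square per degree of freedom, 20.5). Replicates are separate samples by their labels, and p-values measure the spread between them.

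Per the labels, each replicate number is a batch of its own, except that replicates 3 and 4 at P0 share batch 3. Deviations from group means correlated between same-numbered libraries by 0.21 to 0.54 over 4 pairs at P0 and 0.34 to 0.68 over 3 pairs at P6, so the numbers were used as pairs in the blocked fits. Intervals and the floor of 3 counts cover counting error only. The genes given with values were all members, the pathway genes called in any comparison or else the 2 most abundant of their list, and the 2 genes most like each member. Ret, Cntfr and Il6st were named as background only. Sorcs1 was named after its values were seen, and Zfp91 and Gm45346 for their overlap with members. The members and lists were chosen with earlier results of these data known.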

Additional observations from a re-analysis of the deposited data

Results flagged for a closer look

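In P0 compound E libraries, Ntrk2 in replicate 1 stood at 6.19 RPM, far below the other 3 at 14.5 to 15.3 RPM, and Ntf3 in replicate 3 at 213 RPM, below the other 3 at 246 to 252 RPM. Cntf in P0 DMSO replicate 3 stood at 0.0635 RPM, which is 2 counts, with the other 3 at 0. Each was far from the rest of its group by the gap to the nearest library over the range of the group. For Cntf this follows from the other 3 being at 0, and 2 counts lie within the 3 that a count of 0 allows, so that library does not stand apart. Chance alone meets the rule in about 1 in 20 groups, and it flagged 3 of 12 tested, Cntf included. It was applied only to groups of 4 libraries, so no P6 group was examined, batch 6 included. Without compound E replicate 1 the log2 fold change of Ntrk2 at P0 was 0.97, and it ran from 0.39 (without replicate 2 of both treatments) to 1.18 (without DMSO replicate 3) over the libraries left out.

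Ntrk2 was higher with compound E in every pair at P0 and lower in every pair at P6. The difference of the log2 response was -1.04 and did not pass the threshold (edgeR adjusted p = 1.00, and 0.342 to 1.00 over the alternatives). It was -2.10 without P6 compound E replicate 3 and -0.32 without P6 DMSO replicate 3.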

How the results depend on the processing

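Of the counts of members called, 79 of 88 values under an alternative equalled the reported count. This share says little about stability, since the reported fits at P6 and for the difference of responses called 0 of all genes. For P6 against P0 with DMSO, the count of 1 became 0 with the libraries of the 2 groups only and ranged from 0 to 1 when 1 library was left out. Without batch 6 it was again 1, but the gene was Ntf3 in place of Ntrk2. For P6 against P0 with compound E, the count of 0 became 1 (Ntf3) when 0.05 was the limit on adjusted p without a limit on the fold, with DESeq2 and without batch 6. The replicate block changed no call of a member: with it, Ntf3 stood at -0.36 at P0, -1.46 at P6 and -1.09 for the difference. No block could be fitted between ages, since no replicate number or batch held both.

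Levels per length moved by more than 1 SD with the longest transcript: to 9.38, 7.04 and 4.98 for Bdnf in P0 compound E, P0 DMSO and P6 DMSO libraries, to 162 and 202 for Ntf3 in P0 compound E and P0 DMSO libraries, and to 1.45, 0.854, 4.26 and 5.34 for Ntrk2 in P0 compound E, P0 DMSO, P6 compound E and P6 DMSO libraries. TMM sizes moved no RPM mean by more than 1 SD.

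Of 598 fold changes under an alternative, 14 reversed. For Bdnf at P6 they were 0.0006, 0.0062 and 0.015 (the last without replicate 1 of both treatments), with a range of -0.69 to 0.0062 over single libraries left out. For Ntrk2 at P6 they were 0.0052, 0.0182 and 0.41, in a range of -1.39 to 0.41, and for Gdnf -0.0945 at P0 and -0.20 at P6, without replicate 1 or 2 of both treatments. For the difference of responses of Gdnf they were -0.0206 and -0.14 without P6 DMSO replicate 1 or 2, in a range of -0.14 to 2.66 over single libraries, -0.0324 without replicate 3 of both treatments at P0 and -0.46 without replicate 2 of both at P6. For the age difference of Gdnf with DMSO both were -1.40, without DMSO replicate 3 and without batch 6, in a range of -1.40 to 1.40 over single libraries. The cause was not tested.

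Genes called at P0 numbered 195, against 350 with the replicate block, 334 with the batch block, 617 when 0.05 was the limit on adjusted p without a limit on the fold, 425 with DESeq2, 117 with all 14 libraries in one fit, and 1 without replicate 4 of both treatments. At P6 DESeq2 called 11 in place of 0. For the difference of responses the 0 became 16 with the replicate block, 2 at an adjusted p of 0.05, 34 with DESeq2 and 1 with no filter. Between ages the 1218 with DMSO became 1918 with DESeq2, 3840 at an adjusted p of 0.05 and 727 with those 2 groups only, and the 1099 with compound E became 1772 with DESeq2 and 3760 at an adjusted p of 0.05. The coefficient of variation was 46.7% at P6, with 3 libraries a group, against 27.2% at P0, so the spread between libraries limited precision at P6. Counts near the floor limited Cntf. For Ntrk3 both applied, with 82, 6 and 23 counts in P6 DMSO replicates 1 to 3 and 0, 0 and 3 with compound E.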
